A study of Mus musculus with 8 samples.

Results

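The 9 genes described here make or hold the hyaluronan and proteoglycan matrix: Acan (aggrecan), Vcan (versican), the link protein genes Hapln1, Hapln3 and Hapln4, the hyaluronan synthase genes Has1, Has2 and Has3, and Cd44, a cell surface hyaluronan receptor. They were chosen by gene symbol in the platform table, out of 22184 genes measured by a probe set of their own. The tissue was aorta of newborn (p0) mice on an albino C57BL/6J background, either wild type (WT) or knockout (KO) for Lox, the gene of lysyl oxidase, which crosslinks elastin and collagen. The 4 groups were WT and KO ascending aorta, cut from the aortic valve to the ductus arteriosus, and WT and KO descending aorta, cut from the vena cava to the diaphragm. Each group had 2 arrays, and each array held RNA pooled from 8 pups of 1 genotype. Values of single pups are therefore hidden, and every p-value measures the spread between pools. The sources used here do not say how the knockout allele was made or from which litters the wild-type pups came.

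Hyaluronan is a long unbranched sugar polymer that the synthases extrude from the cell membrane. Aggrecan and versican, large chondroitin sulfate proteoglycans of the lectican family, bind it at one end, and link proteins lock that bond, so that the complexes draw in water and swell. Versican is the lectican usually found in artery wall, aggrecan is best known from cartilage, and both are cut by ADAMTS proteases.

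Signals are the log2 values deposited by the authors, so a difference of 1 is a 2-fold change. A difference is called where its adjusted p (limma, Benjamini-Hochberg over 16638 genes) is under 0.05. Each of the 9 genes had 1 probe set of its own, and all 9 lay above the level of 4.11 under which genes were left out as dim. Has2 shared a further probe set with its antisense gene Has2os. That probe set read 3.90 to 4.61, with a mean below the dim level, and was not used. Since the protocol does not say whether strand was kept, reads of a gene and an antisense partner were taken as the platform table assigns them.

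Of the 9 genes, 3 changed in at least 1 comparison, and their promoters are shown for that reason. RefSeq sequences of build GRCm38.p6, from 250 bases before to 50 bases after the start site, were matched for 6 genes (Acan, Vcan, Hapln1, Hapln3, Has1 and Cd44), and not for Hapln4, Has2 or Has3. Vcan starts on the minus strand within chr13:89742463-89742762. Hapln1, next to Vcan in the RefSeq gene order, starts on the plus strand within chr13:89540386-89540685. Acan, next to Hapln3 in that order, starts on the plus strand within chr7:79052976-79053275. Capitals mark the letters matched by the motifs named after them.
Vcan: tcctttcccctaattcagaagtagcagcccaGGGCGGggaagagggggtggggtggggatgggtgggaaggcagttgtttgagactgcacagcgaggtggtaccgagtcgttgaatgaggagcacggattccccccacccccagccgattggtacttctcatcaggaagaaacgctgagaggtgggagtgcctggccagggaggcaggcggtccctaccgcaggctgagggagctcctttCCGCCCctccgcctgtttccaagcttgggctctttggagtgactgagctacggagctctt
Hapln1: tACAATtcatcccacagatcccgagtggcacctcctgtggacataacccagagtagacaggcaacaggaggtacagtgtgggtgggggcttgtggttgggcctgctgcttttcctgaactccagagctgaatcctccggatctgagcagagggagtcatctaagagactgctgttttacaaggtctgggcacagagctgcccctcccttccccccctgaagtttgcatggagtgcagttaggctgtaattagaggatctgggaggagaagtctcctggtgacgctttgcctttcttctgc
Acan: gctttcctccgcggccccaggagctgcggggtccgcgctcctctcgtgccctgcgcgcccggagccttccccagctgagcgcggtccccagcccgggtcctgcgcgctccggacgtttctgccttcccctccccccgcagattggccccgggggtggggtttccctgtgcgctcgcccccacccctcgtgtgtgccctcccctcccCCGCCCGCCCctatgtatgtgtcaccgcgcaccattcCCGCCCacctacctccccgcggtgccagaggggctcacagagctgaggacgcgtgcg
The motifs searched on both strands were the TATA box TATAAA, the GC box GGGCGG, the AP-1 site TGANTCA, the TCF/LEF core CTTTGA, the SOX core ACAAT and the EGR site GCGNGGGCG. Vcan held the GC box letters at -219 and -10, counted from the start site at the first base of the match. Acan held them at -44, -40 and -7, the first of these overlapping the next. Of 32851 promoters in the table, 35.7% held at least 1 GC box. Hapln1 held only the SOX core, at -249, which 31% of promoters held. The TATA box was found in 13.6% of promoters, the AP-1 site in 7.81%, the TCF/LEF core in 16% and the EGR site in 5.55%, and none of these was in the 3 sequences shown. GC content was 74% for Acan, 61% for Vcan and 54.3% for Hapln1, against a median of 52.7% over the table.

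At the targeted gene, signal was lower on every array labelled KO. Lox read 11.24 to 11.60 on the 4 WT arrays and 8.51 to 8.87 on the 4 KO arrays, and it fell by 2.73 in the ascending aorta (adjusted p = 5.34e-05) and fell by 2.80 in the descending (adjusted p = 4.42e-05). The KO signal stayed above the dim level of 4.11, and the sources used here do not say where the Lox probes lie relative to the deleted part. Smooth muscle markers, which define the labelled tissue, had mean signals of 10.05 to 10.20 on every array. Of 10 tested in limma, 0 were called within a segment or genotype. Averaged over genotypes, 2 were called higher in ascending aorta and 0 lower, against 4.07% of all genes. These were Lmod1, by 0.43 (adjusted p = 0.0196), and Myocd, by 0.34 (adjusted p = 0.0429). Arrays of a group correlated at 0.988 to 0.992 across genes. Markers of other tissues were not even between groups: the mean of 10 lung epithelium markers was 5.63 and 6.02 on the WT descending arrays and 4.63 to 5.08 on the other 6, and 10 plasma protein genes of liver reached 7.01 and 8.37 on the KO descending arrays against 5.41 to 6.63 elsewhere.

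The lecticans showed different patterns. Vcan was lower in KO than in WT pools in both segments, by about the same amount, and its segments were not told apart within a genotype. Acan followed the segment: it was higher in ascending than in descending aorta in both genotypes, with no called difference between genotypes.

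Vcan (probe set 17294738) read 11.19 and 11.18 in the WT ascending pools, 10.57 and 10.74 in the KO ascending pools, 10.96 and 10.93 in the WT descending pools and 10.41 and 10.43 in the KO descending pools. All 4 KO arrays lay below all 4 WT arrays. The group means were 11.19 ± 0.01 (SD, n = 2) in WT and 10.66 ± 0.12 in KO ascending aorta, and 10.94 ± 0.02 in WT and 10.42 ± 0.01 in KO descending aorta. In KO ascending aorta Vcan fell by 0.53 (SE 0.10, adjusted p = 0.0375), a 1.44-fold drop. In KO descending aorta it fell by 0.52 (SE 0.10, adjusted p = 0.0434), also 1.44-fold. Averaged over segments, the fall was 0.53 (SE 0.07, adjusted p = 0.00507).

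The order of Vcan signals was WT ascending, WT descending, KO ascending, KO descending. No neighbours in that order were told apart: the first step was 0.24 (adjusted p = 0.385), the second 0.29 (adjusted p = 0.142) and the last 0.24 (adjusted p = 0.404). The ends of the order differed by 0.77 (adjusted p = 0.00417). The 2 segments' KO effects differed by only -0.01, with a 95% interval of -0.34 to 0.32. Averaged over genotypes, Vcan was 0.24 higher in ascending aorta, which did not pass (adjusted p = 0.129).

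The Vcan fall over both segments kept its call under each of the 17 alternatives, at -0.57 to -0.48. Within a segment, the call was lost without any 1 of the 8 arrays, with the ascending value at -0.62 to -0.44 (adjusted p 0.0588 to 0.170) and the descending value at -0.54 to -0.51 (adjusted p 0.0533 to 0.218). With the replicate number as a block the adjusted p was 0.0527 in the ascending and 0.0630 in the descending aorta. In bulk RNA, fewer cells of a type and less RNA per cell cannot be told apart. Endothelial markers were also lower in KO pools. Their mean signal was 8.04 and 8.17 in WT against 7.82 and 7.80 in KO ascending pools. In descending pools it was 8.48 and 8.43 against 8.16 and 8.11. Of 12, 2 were called lower in ascending and 1 in descending pools, against 2.73% and 2.28% of all genes. Fibroblast and adventitia markers had mean signals of 9.75 to 9.97. Of 12, 2 fell in the KO ascending aorta (Pdgfra and Dpt), and in the descending aorta Dpt fell and Pi16 rose, against the same shares of all genes. Dpt, the matrix protein dermatopontin, fell by 0.55 (adjusted p = 0.0449) in ascending and fell by 0.65 (adjusted p = 0.0331) in descending KO pools, and Pdgfra, a fibroblast receptor, fell by 0.60 (adjusted p = 0.0466) in ascending pools. Pi16, a marker of adventitial fibroblasts, rose by 0.53 (adjusted p = 0.0479). Both descending calls were lost without any 1 of the 8 arrays (adjusted p 0.0503 to 0.187 for Dpt and 0.0621 to 0.244 for Pi16). Both ascending calls held without either KO descending array and were lost without each of the other 6 (adjusted p 0.0757 to 0.188 for Dpt and 0.0737 to 0.187 for Pdgfra). Averaged over segments, 6 of the 12 endothelial markers were called lower and 0 higher, where 11.4% of all genes were called. Of the 12 fibroblast and adventitia markers, 2 were called lower and 1 higher. Dpt fell by 0.60 and Pdgfra by 0.57 (limma, adjusted p = 0.00479 and 0.00720). Both passed in each of the 9 settings that left out no array. Pi16 rose by 0.31 (adjusted p = 0.0377). The part of either list in the Vcan values was not tested.

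Acan (probe set 17479335) read 10.88 and 10.80 in the WT ascending pools and 10.19 and 9.91 in the WT descending pools. In KO pools it read 10.70 and 10.74 in ascending and 10.02 and 10.15 in descending aorta. All 4 ascending arrays lay above all 4 descending arrays. Acan was 0.79 higher (SE 0.12, adjusted p = 0.0205) in WT and 0.64 higher (SE 0.12, adjusted p = 0.0452) in KO ascending aorta, a 1.73-fold and a 1.55-fold difference. Averaged over genotypes it was 0.71 higher (SE 0.09, adjusted p = 0.00276), 1.64-fold.

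Between genotypes, Acan differed by -0.12 in the ascending aorta (95% interval -0.40 to 0.16, adjusted p = 0.642) and by 0.03 in the descending aorta (-0.24 to 0.31, adjusted p = 0.924). The WT ascending pools lay above the KO ascending pools without overlap, and the descending groups overlapped. In the order WT ascending, KO ascending, KO descending, WT descending, only the middle step passed. The WT and KO segment differences themselves differed by -0.15, with an interval of -0.54 to 0.24.

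The Acan difference over both genotypes held under each of 17 alternatives, at 0.64 to 0.78. In WT alone the call was lost without the first WT ascending (adjusted p = 0.144), the second WT ascending (0.0643) or the second WT descending array (0.118). In KO alone it was lost without either WT ascending array (0.0732 each), without the first or second KO ascending array (0.183 and 0.156) and without the first or second KO descending array (0.206 and 0.131), and the block on replicate number gave 0.0669. The mean signal of cartilage markers overlapped between segments, at 5.07 to 5.22 on the ascending and 5.15 to 5.26 on the descending arrays. Of 16 tested in limma, 0 were called in either genotype, and 2 more (Matn1 and Matn4) were dim. At an unadjusted p under 0.05 there were 4 in WT and 3 in KO, against 12.3% and 12.1% of all genes. Averaged over genotypes 1 of the 16 was called, against 4.07% of all genes. Comp, an oligomeric matrix protein of cartilage, fell by 0.62 (adjusted p = 0.0276) in ascending against descending aorta. That call held without the second WT descending or first KO ascending array and was lost without each of the other 6 (adjusted p 0.0623 to 0.0936). Neither Sox9 (0.37, adjusted p = 0.0930) nor Chad (-0.76, adjusted p = 0.102) was called there. Markers of valve and cushion read 7.21 to 7.38 in ascending and 7.12 to 7.31 in descending pools, overlapping. Of 13, 5 in WT and 8 in KO had an unadjusted p under 0.05, against 12.3% and 12.1% of all genes. Prrx1 alone was called in each genotype, at -0.73 in WT and -0.67 in KO (adjusted p = 0.0149 and 0.0217). Both calls were lost without any 1 of the 4 arrays compared (adjusted p 0.0514 to 0.109 in WT and 0.0731 to 0.136 in KO). Averaged over genotypes, Tbx20 was 0.84 higher (adjusted p = 0.0150), Cthrc1 and Prrx1 were lower (-0.56 and -0.70, adjusted p = 0.00945 and 0.00156), and the median of the 13 was 0.26. The Tbx20 call was lost without the first WT ascending, first WT descending or second KO ascending array (adjusted p 0.0541 to 0.0553). Neuronal and glial markers were lower in ascending aorta, at 5.25 to 5.49 against 6.39 to 6.82. Of 9, 5 were called in each genotype, against 1.48% of all genes. Of 10 smooth muscle markers, 2 (Lmod1 and Myocd) were called higher in ascending aorta averaged over genotypes, as given above. The part of these markers in the Acan values was not tested.

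**Figure D1:**
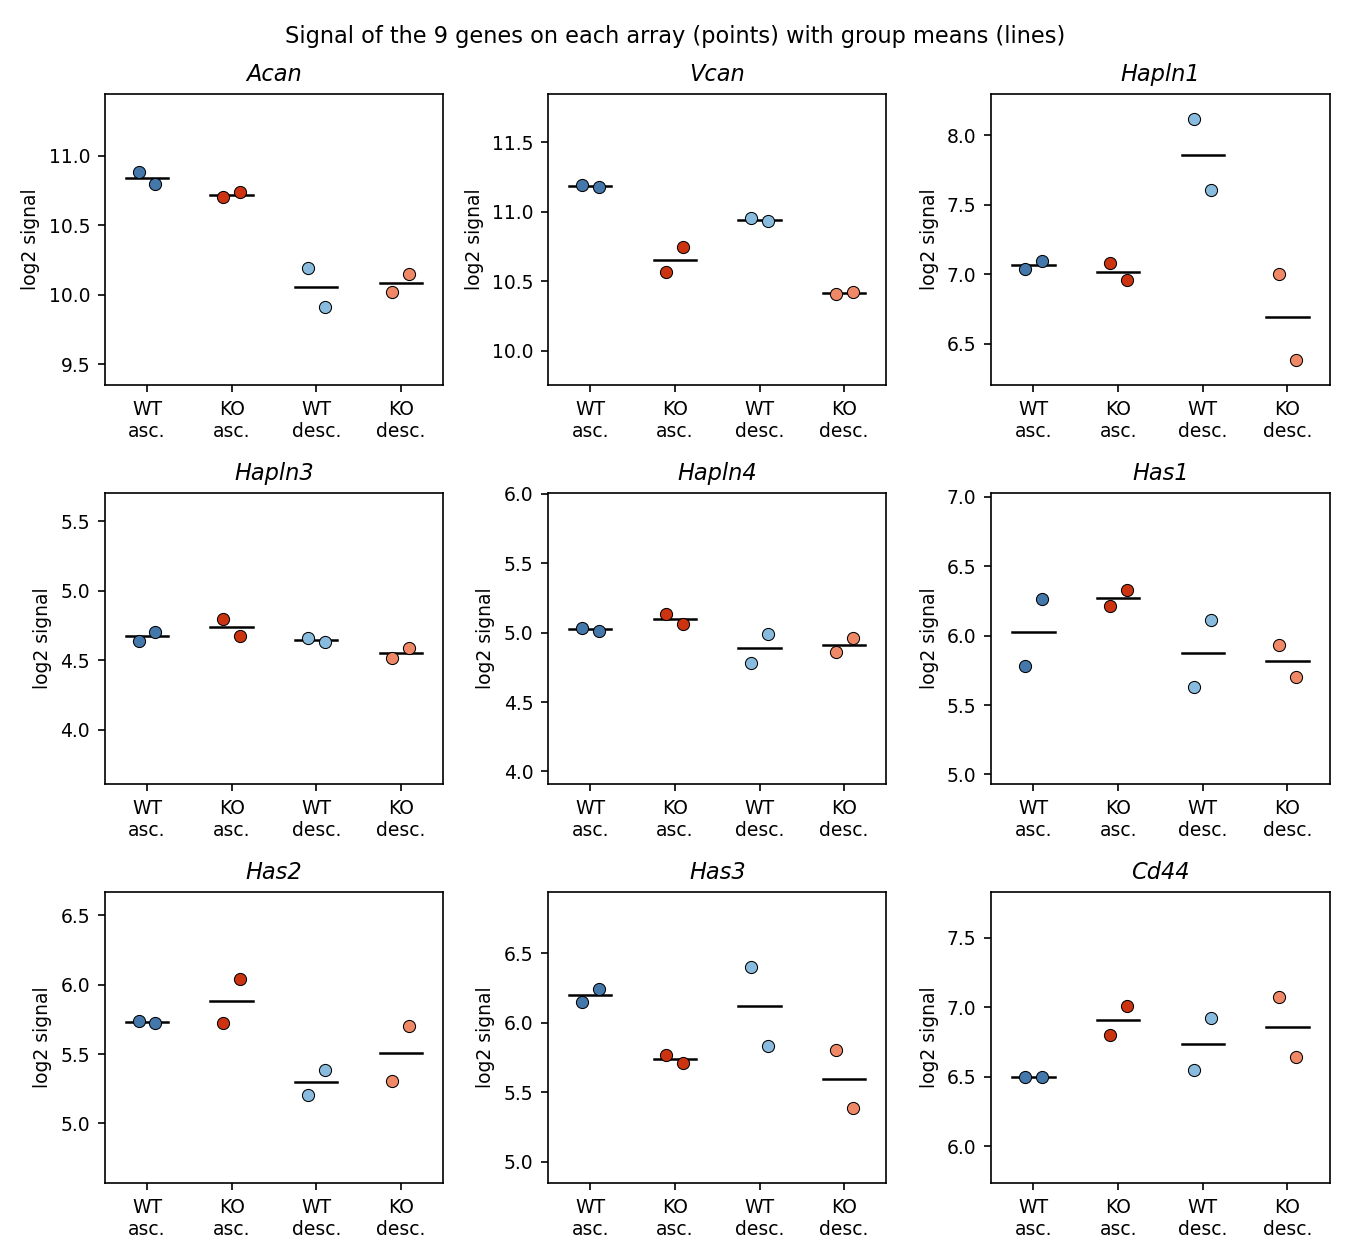
Log2 signal of each of the 9 genes (vertical axes) on the 8 arrays, by group (horizontal axis). Points are arrays, lines are group means of 2 pools, and each vertical axis covers its own range. Vcan is lower on all 4 KO arrays, Acan is higher on all 4 ascending arrays, and Hapln1 is highest in the WT descending pools.

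The link proteins did not move as a family. Hapln1 alone was called. It was highest in WT descending aorta and lower in the KO descending aorta, while in the ascending aorta WT and KO pools overlapped.

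Hapln1 (probe set 17289009), which stabilizes the bond between lecticans and hyaluronan, read 8.12 and 7.60 in the WT descending pools and 7.002 and 6.38 in the KO descending pools. In the ascending aorta it read 7.04 and 7.09 in WT and 7.08 and 6.96 in KO pools. The descending groups did not overlap, and both varied more between pools (SD 0.36 and 0.44) than the ascending groups (SD 0.04 and 0.08). The KO descending aorta differed from WT by -1.17 (SE 0.22, adjusted p = 0.0388), so that Hapln1 fell 2.25-fold. In the ascending aorta the difference was -0.05 (95% interval -0.55 to 0.45, adjusted p = 0.932).

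The test of that contrast between segments did not pass. The Hapln1 interaction was 1.12 (SE 0.31, 95% interval 0.42 to 1.82, adjusted p = 0.775). Nor did any gene pass in the interaction (0 of 16638, 0%, in limma), with 932 genes at an unadjusted p under 0.05. WT descending exceeded WT ascending Hapln1 by 0.79, which was not called either (adjusted p = 0.155). In the order WT descending, WT ascending, KO ascending, KO descending, no neighbours were told apart, and WT descending against KO ascending gave 0.84 (adjusted p = 0.0567). Averaged over segments, Hapln1 fell by 0.61 (SE 0.15, adjusted p = 0.0395), although WT and KO arrays overlapped.

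The descending Hapln1 value ranged from -1.48 to -0.86 over the arrays left out. It passed without the first KO descending array (adjusted p = 0.0347) and missed without each of the other 7, at adjusted p = 0.0577 to 0.216. The averaged fall missed without 6 of the 8 arrays (adjusted p 0.0804 to 0.120) and passed without the second WT descending or the first KO descending array (0.0348 and 0.0228). Lung, cardiac and endothelial marker lists were highest in the WT descending pools, where Hapln1 was also high. Sftpc, the lung surfactant protein C gene, read 8.37 and 10.15 there against 4.50 to 5.07 on the other 6 arrays. The lung list, given above, had 2 of 10 members lower in KO descending aorta, against 2.28% of all genes called. The mean of 12 cardiac muscle markers was 7.84 and 8.07 in WT descending pools and 7.15 to 7.76 elsewhere. None of the 12 was called between genotypes, and 2 had an unadjusted p under 0.05 in the descending aorta, against 18.8% of all genes. The mean of the endothelial list was 8.48 and 8.43 in WT descending pools and 7.80 to 8.17 elsewhere. Of its 12 markers, 1 was called lower in KO descending aorta, against 2.28% of all genes. At an unadjusted p under 0.05 there were 9, against 18.8%. Within the WT descending pair, the first pool had more Hapln1 and more of the endothelial list, and the second more of the lung and cardiac lists. An order within 2 pools is a description only. The part of these lists in the Hapln1 value was not tested.

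Hapln3, a link protein of many tissues, and Hapln4, one of brain, read not far above the dim level. Hapln3 read 4.63 to 4.70 in WT and 4.52 to 4.80 in KO pools, and Hapln4 read 4.78 to 5.03 in WT and 4.86 to 5.13 in KO pools. Neither was called in any of the 7 comparisons. The intervals of the 4 differences within a segment or genotype reached from -0.32 to 0.41 for Hapln3 and from -0.23 to 0.44 for Hapln4. All 4 ascending arrays of Hapln4 lay above all 4 descending arrays, by 0.16 on average (adjusted p = 0.364).

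**Figure D2:**
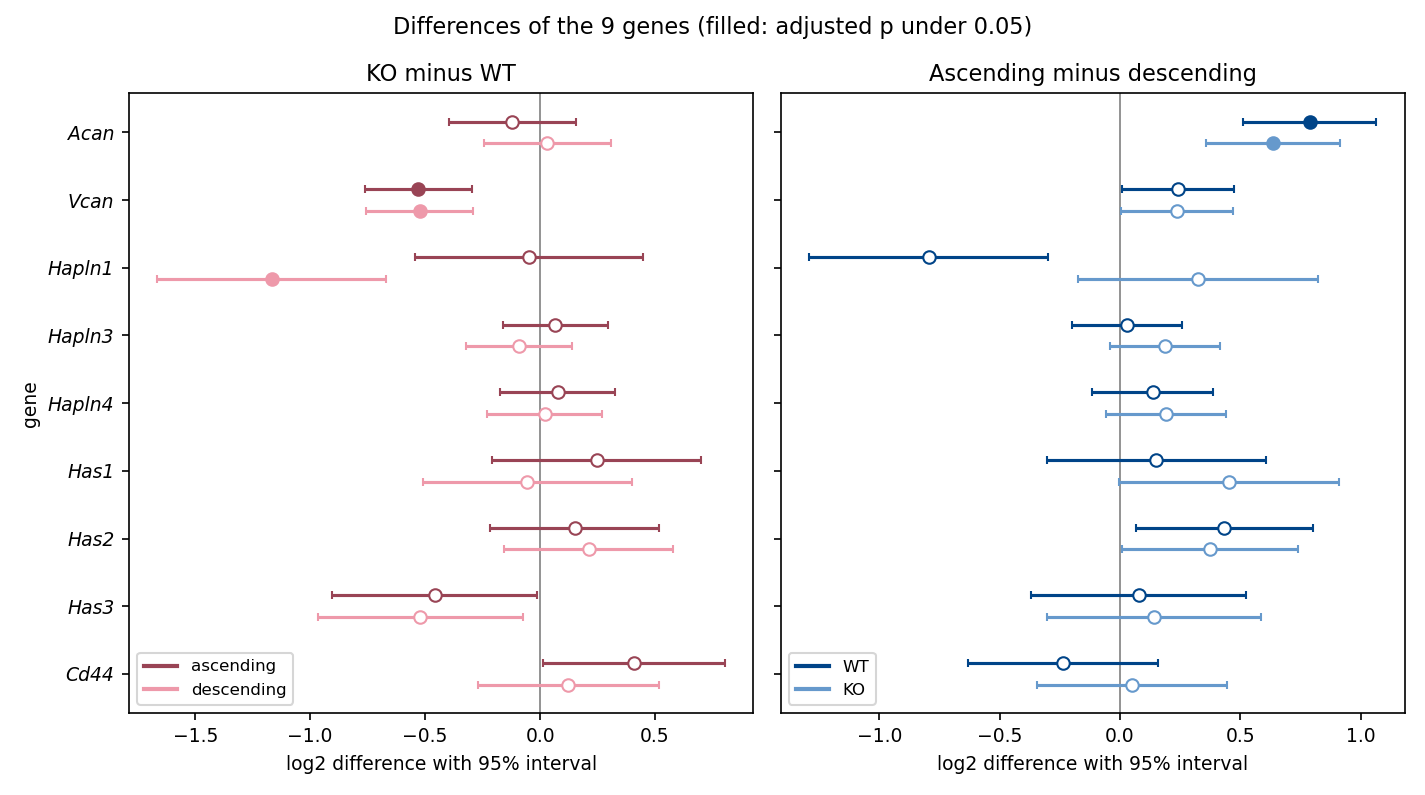
Log2 differences of the 9 genes (vertical axis) between KO and WT in each segment (left) and between ascending and descending aorta in each genotype (right), with 95% intervals from the limma fit. Filled points passed an adjusted p of 0.05: Vcan in both segments and Hapln1 in the descending aorta on the left, Acan in both genotypes on the right.

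None of the hyaluronan synthases was called in any of the 7 comparisons. Has2, the synthase needed for the cushions of the embryonic heart, read 5.74 and 5.72 in WT and 5.72 and 6.04 in KO ascending pools. In the descending aorta it read 5.20 and 5.39 in WT and 5.31 and 5.71 in KO pools. Every ascending array lay above every descending one. The difference was 0.40 averaged over genotypes (SE 0.11, adjusted p = 0.103), and was 0.43 in WT (adjusted p = 0.304) and 0.37 in KO (adjusted p = 0.402). KO minus WT was 0.15 in the ascending aorta (95% interval -0.22 to 0.52) and 0.21 in the descending aorta (-0.16 to 0.58).

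Has3, which makes shorter hyaluronan chains than Has2 in cultured cells, read 6.15 and 6.24 in WT and 5.77 and 5.71 in KO ascending pools. In descending pools it read 6.40 and 5.84 in WT and 5.80 and 5.39 in KO. As for Vcan, all 4 KO arrays lay below all 4 WT arrays, but the lowest WT and the highest KO arrays nearly met. The averaged difference was -0.49 (SE 0.14, adjusted p = 0.0552). It passed when genes under the 50th percentile were left out (adjusted p = 0.0320), with a trended robust prior (0.0287), with the replicate block (0.0400) and without the second WT descending array (0.0271). The other 13 alternatives missed the threshold. Within a segment it was -0.46 in ascending (adjusted p = 0.249) and -0.52 in descending aorta (adjusted p = 0.201).

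Has1, the remaining synthase, read 5.78 and 6.26 in WT and 6.21 and 6.33 in KO ascending pools, and 5.63 and 6.11 in WT and 5.93 and 5.70 in KO descending pools. The WT pools of each segment lay apart, and the genotypes overlapped in both segments. KO minus WT was 0.25 in the ascending aorta (adjusted p = 0.555), with an interval of -0.21 to 0.70, and -0.06 in the descending aorta (-0.51 to 0.40).

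Cd44, the receptor that also marks activated leukocytes, read 6.50 and 6.50 in WT and 6.80 and 7.01 in KO ascending pools. In the descending aorta it read 6.55 and 6.92 in WT and 7.07 and 6.64 in KO pools. The groups were apart in the ascending and overlapped in the descending aorta. The KO minus WT difference was 0.41 (SE 0.17, 95% interval 0.014 to 0.80, adjusted p = 0.246) in the ascending aorta and 0.12 (-0.27 to 0.52, adjusted p = 0.758) in the descending aorta. Leukocyte markers were higher in KO pools: their mean signal was 6.96 to 7.12 on the KO arrays and 6.42 to 6.86 on the WT arrays, and 2 of 10 rose in the ascending and 1 in the descending aorta. Of 13 neutrophil markers, 6 rose in the ascending aorta and 0 in the descending aorta, against 2.73% and 2.28% of all genes called. In the descending aorta 7 of the 13 had an unadjusted p under 0.05, against 18.8% of all genes. Of 13 macrophage and monocyte markers, 2 rose in the ascending and 3 in the descending aorta. Their mean signal was 8.29 to 8.56 on the KO arrays and 7.88 to 8.19 on the WT arrays. The part of these lists in the Cd44 values was not tested.

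**Figure D3:**
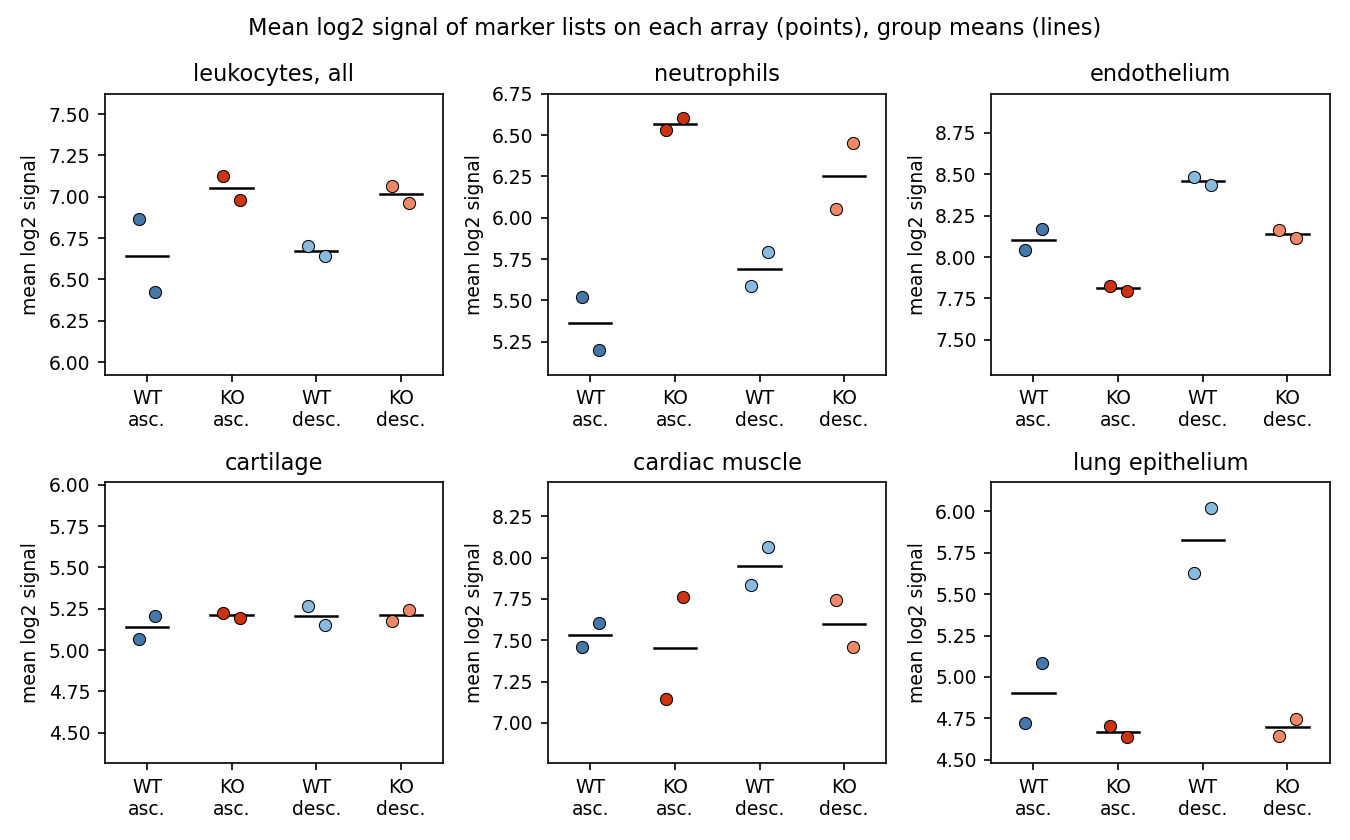
Mean log2 signal of 6 marker lists (vertical axes, each with its own range) on the 8 arrays by group (horizontal axis), with points for arrays and lines for group means. Leukocyte and neutrophil markers lie higher on the KO arrays, endothelial markers lie lower in KO than in WT pools of the same segment, cartilage markers stay at 5.07 to 5.26, and lung markers stand out in the WT descending pools.

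Counted over the 9 genes, 0 were higher and 1 was lower in KO ascending aorta, where 2.73% of all genes were called. In the descending aorta 0 were higher and 2 lower, against 2.28% of all genes. Between segments 1 was higher in WT and 1 in KO ascending aorta, against 1.48% of all genes in each genotype. Averaged over segments, 2 were lower in KO pools, against 11.4% of genes called, and averaged over genotypes 1 was higher in ascending aorta, against 4.07%. With so few members, these counts are a description.

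Separation of arrays without overlap was common in pairs of 2. It held for 5 of the 9 genes between genotypes in the ascending aorta, where 49.5% of all genes were so separated, and for 4 in the descending aorta, against 51.1%. Between segments it held for 6 genes in WT and 6 in KO, against 42.4% and 41% of all genes. Over 4 arrays against 4 it held for 2 genes between genotypes (Vcan and Has3), against 17%, and for 3 between segments (Acan, Has2 and Hapln4), against 7.26%. The median KO minus WT difference of the 9 genes was 0.07 in the ascending and -0.06 in the descending aorta, against 0.01 and -0.01 over all genes.

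Other genes whose signal ran most like that of a called member over the 8 arrays were found by Pearson correlation, as a description. The arrays share their pools' tissue makeup and the differences between the groups. For Vcan they were Vldlr (0.988), Ccdc80 (0.987) and Etv1 (0.986), for Acan they were Akr1c18 (0.977), Sorl1 (0.976) and Efna5 (0.971), and for Hapln1 they were S100a13 (0.973), Rab11a (0.967) and Ngrn (0.967). The chromosomal neighbours Vcan and Hapln1 correlated at 0.46, and Acan and Hapln3 at 0.64.

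The genes around this matrix begin here with the proteases that cut lecticans, where the change between genotypes lay in 1 gene. Of 7 ADAMTS genes tested, Adamts8 alone was called between genotypes. It read 5.87 to 6.07 on the WT arrays and 7.22 to 7.37 on the KO arrays, with no overlap. In KO pools Adamts8 rose by 1.18 in ascending aorta (SE 0.09, adjusted p = 0.00230) and by 1.45 in descending aorta (SE 0.09, adjusted p = 0.00145), and it kept both calls under each of the 18 alternatives. When the gene's probe sets were averaged, the rise was smaller, at 0.71 in ascending and 1.12 in descending aorta. Adamts1, a versican-cutting protease, was not called between genotypes, at 0.02 in ascending and -0.24 in descending aorta (95% interval -0.51 to 0.02, adjusted p = 0.945 and 0.307). Averaged over genotypes 2 of the 7 were called higher in ascending aorta, where 4.07% of all genes were called. These were Adamts1, by 0.45 (adjusted p = 0.0196), and Adamts9, named after its values were seen, by 0.36 (adjusted p = 0.0497). Of the 9 settings that left out no array, Adamts1 kept its call in 8 and Adamts9 in 6. Among the fits without 1 array, Adamts1 kept it only without the first WT descending or second KO ascending array. Adamts9 kept it there only without the first KO ascending array. Over all alternatives the values were 0.38 to 0.52 for Adamts1 and 0.30 to 0.42 for Adamts9. The median of the 7 was 0.04 in the ascending and 0.02 in the descending aorta.

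Of 15 other genes that bind hyaluronan, 2 rose in the ascending and 1 in the descending KO aorta, and none was called lower within a segment. The shares of all genes called there were 2.73% and 2.28%. Ptx3, a pentraxin that takes part in hyaluronan crosslinking, read 5.84 to 5.99 on the WT arrays, 7.43 and 7.12 in KO ascending and 7.02 and 6.47 in KO descending pools. It rose by 1.40 (SE 0.18, adjusted p = 0.0113) in the ascending aorta and was 0.78 higher in the descending aorta (adjusted p = 0.0668). The ascending call was lost without the first or second WT ascending or the first KO ascending array (adjusted p = 0.0563, 0.0608 and 0.0676). Averaged over segments Ptx3 rose by 1.09 (adjusted p = 0.00285), under each of 17 alternatives.

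Tnfaip6, whose product TSG-6 moves heavy chains onto hyaluronan, read 6.92 and 7.28 in WT and 8.99 and 8.37 in KO ascending pools. It rose there by 1.58 (SE 0.30, adjusted p = 0.0347), and was 0.46 higher in the descending aorta (adjusted p = 0.452). That call was lost without any 1 of the 4 ascending arrays (adjusted p 0.0569 to 0.165) or of the 2 WT descending arrays (0.0525 each). Ambp, which encodes bikunin of the inter-alpha-inhibitor that supplies those heavy chains, read 4.16 to 4.55 on the WT arrays, 4.74 and 4.83 in KO ascending and 5.68 and 6.96 in KO descending pools. In descending aorta it rose by 1.98 (SE 0.34, adjusted p = 0.0327). The liver plasma protein list was also at its highest there, with 6 of 10 called higher, against 2.28% of all genes. The part of that list in the Ambp value was not tested. Ambp lost its call without either WT descending array (adjusted p = 0.145 and 0.141) or either KO ascending array (0.0533 each). Lyve1, the hyaluronan receptor of lymphatic vessels, differed by -0.22 and 0.09 in ascending and descending aorta and was not called. The medians of the 15 were 0.06 and 0.20.

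Averaged over segments, 4 of those 15 genes rose in KO pools (Ptx3, Tnfaip6, Ambp and Stab1) and 1 fell, against 11.4% of all genes called. Itih5 and Stab1 are named after their values were seen. Itih5, of the inter-alpha-inhibitor heavy chain family, read 8.05 to 8.10 on the WT arrays and 7.55 to 7.90 on the KO arrays and fell by 0.35 (adjusted p = 0.0330). Its call held without the second KO ascending array and was lost without each of the other 7 (adjusted p 0.0520 to 0.0965). Stab1, a scavenger receptor that takes up hyaluronan, rose by 0.26 (adjusted p = 0.0499), a call lost without any 1 of the 8 arrays (adjusted p 0.0713 to 0.140). The averaged calls of Tnfaip6 and Ambp (adjusted p = 0.0199 each) were lost without 4 and 5 of the 8 arrays, respectively (adjusted p 0.0506 to 0.0634 for Tnfaip6 and 0.0512 to 0.0635 for Ambp). Averaged over genotypes 1 of the 15 was called, against 4.07% of all genes. This was Layn (layilin, a hyaluronan receptor), at 0.37 higher in ascending aorta (adjusted p = 0.0325) and uncalled without any 1 array.

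Genes that supply the sugar precursors showed no call between genotypes within a segment. In ascending and descending aorta, 3 and 4 of the 11 tested had an unadjusted p under 0.05, against 19.1% and 18.8% of all genes. The medians were 0.19 and 0.22. Averaged over segments, 3 of 11 rose in KO pools, where 11.4% of all genes were called, and these 3 are named after their values were seen. Gfpt1, the first enzyme of the hexosamine pathway, read 7.39 to 7.50 on the WT and 7.79 to 7.96 on the KO arrays and rose by 0.42 (adjusted p = 0.00827), under each of 17 alternatives. The hexokinase genes Hk2 and Hk1 rose by 0.68 and 0.35 (adjusted p = 0.0121 and 0.0157). Hk1 lost its call without the second WT ascending, the first WT descending or the second WT descending array (adjusted p = 0.0544, 0.0511 and 0.0506).

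Between segments, Gfpt2, a second enzyme of the hexosamine entry step, was 0.78 higher in WT ascending aorta (SE 0.14, adjusted p = 0.0356) and 0.67 higher in KO (adjusted p = 0.0626). All 4 ascending arrays, at 8.75 to 8.93, lay above all 4 descending arrays, at 7.97 to 8.41. Averaged over genotypes it was 0.73 higher (adjusted p = 0.00513) and passed under each of 17 alternatives. The WT call alone was lost without any 1 of the 4 WT arrays (adjusted p 0.138 to 0.204) or either KO ascending array (0.0592 each), and with the replicate block (0.0560). Ugdh, which makes the glucuronic acid precursor, was 0.30 higher in WT (adjusted p = 0.433) and 0.66 higher in KO ascending aorta (adjusted p = 0.0631). Averaged over genotypes it was 0.48 higher (adjusted p = 0.0311), a call that held without the first KO descending array and was lost without each of the other 7 (adjusted p 0.0646 to 0.104).

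**Figure D4:**
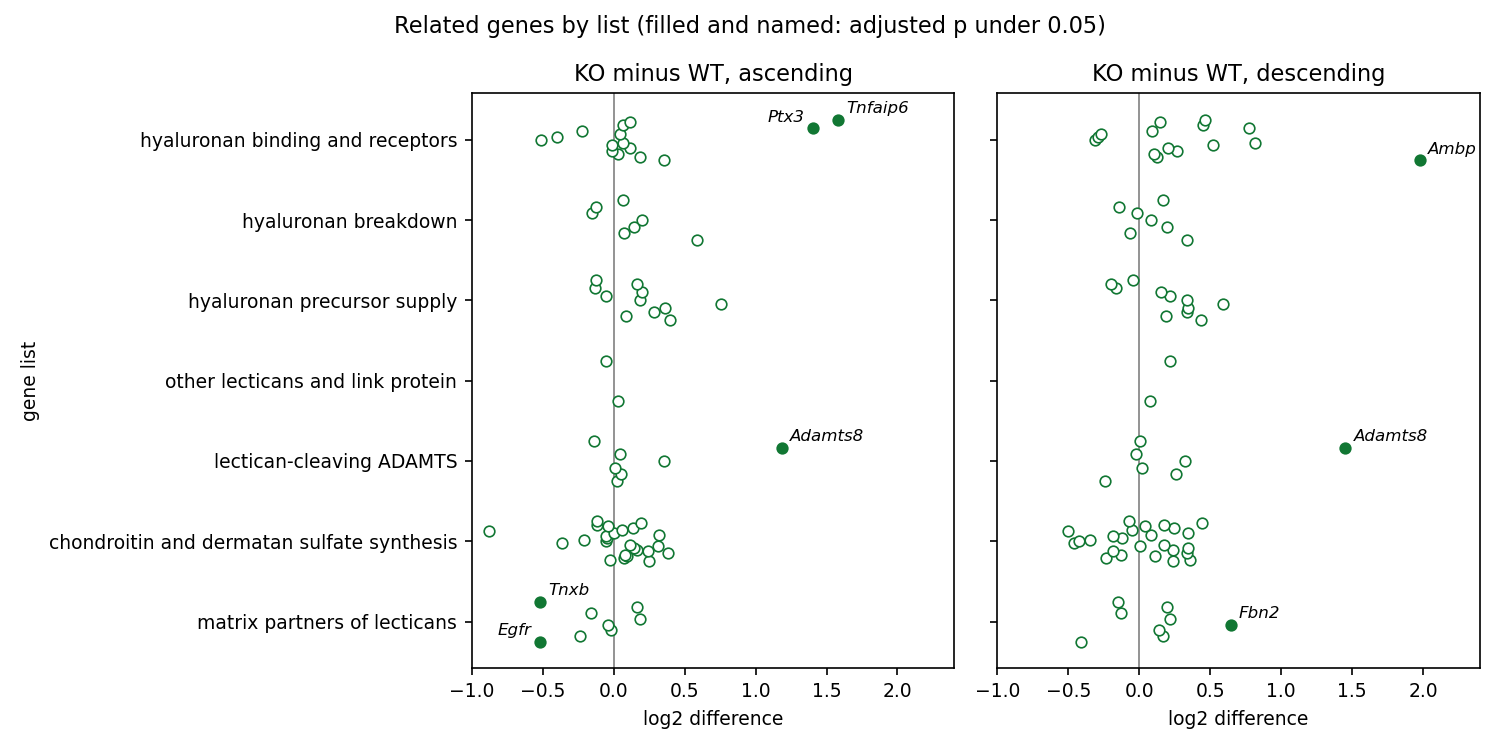
Log2 difference between KO and WT (horizontal axis) of the tested genes in 7 lists around the hyaluronan and lectican matrix (vertical axis), in ascending (left) and descending aorta (right). Filled, named points passed an adjusted p of 0.05, and Adamts8 is the one gene filled in both panels.

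Chondroitin and dermatan sulfate synthesis, which builds the side chains of the lecticans, had 0 of 25 genes called in the ascending and 0 in the descending aorta (limma). At an unadjusted p under 0.05 there were 4 and 9 of the 25, against 19.1% and 18.8% of all genes. The medians were 0.07 and 0.04. Chsy1, which polymerizes chondroitin, differed by 0.11 and 0.17. Averaged over segments 1 of the 25 rose and 2 fell, against 11.4% of all genes called, and these are named after their values were seen. Papss2, which makes the sulfate donor, read 8.09 to 9.02 on the WT and 7.64 to 8.25 on the KO arrays and fell by 0.69 (adjusted p = 0.0205). Its call was lost without the second WT ascending, the first WT descending or either KO descending array (adjusted p 0.0512 to 0.0781). The synthase gene Chsy3 fell by 0.41 (adjusted p = 0.0184) and the sulfotransferase gene Chst12 rose by 0.36 (adjusted p = 0.0205). Chsy3 was at -0.12 (adjusted p = 0.318) when its probe sets were averaged, and lost its call without the first WT ascending, first WT descending, second KO ascending or first KO descending array (adjusted p 0.0542 to 0.0654). Chst12 lost its call without the second WT ascending, second WT descending, first KO ascending or second KO descending array (adjusted p 0.0620 to 0.0663).

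Hyaluronan breakdown had 0 of 7 genes called in either segment, and the hexosaminidase gene Hexa differed by 0.20 and 0.08. At an unadjusted p under 0.05 there were 1 in the ascending and 0 in the descending aorta, against 19.1% and 18.8% of all genes. Averaged over segments 1 of 7 rose in KO pools, against 11.4% of all genes called. Averaged over genotypes 1 of 7 was higher in ascending aorta, against 4.07%. Both calls were Cemip, which takes part in hyaluronan degradation and is named after its values were seen. Cemip read 4.26 to 4.87 on the WT and 4.60 to 5.45 on the KO arrays, not far above the dim level of 4.11. It rose by 0.46 in KO pools (adjusted p = 0.0271) and was 0.52 higher in ascending aorta (adjusted p = 0.0309). Each call was kept in 7 of the 8 settings that tested Cemip and left out no array. Among the fits without 1 array, the first call held only without the first WT or first KO ascending array. The second held there only without the second WT or first KO ascending array. Over all alternatives the values were 0.38 to 0.54 and 0.44 to 0.60. The other lectican and link protein genes tested, Ncan and Hapln2, were not called, with Ncan at -0.06 and 0.21.

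Of 8 genes for matrix partners of the lecticans or for factors tied to them, 2 fell in the KO ascending aorta and 1 rose in the descending aorta. The shares of all genes called were 2.73% and 2.28%. Tnxb, a tenascin, and Egfr, the epidermal growth factor receptor, each fell by 0.52 (adjusted p = 0.0450 and 0.0482) in the ascending aorta. In the descending aorta Tnxb differed by -0.15 (adjusted p = 0.508) and Egfr by -0.41 (adjusted p = 0.0971). Fbn2, fibrillin-2, rose by 0.64 (adjusted p = 0.0479) in the descending aorta and differed by -0.04 in the ascending aorta. All 3 calls were lost without any 1 of the 8 arrays, with adjusted p of 0.0556 to 0.244. Averaged over segments, 2 of the 8 were called lower and 0 higher, against 11.4% of all genes called. Egfr fell by 0.46 (adjusted p = 0.00956) under each of 17 alternatives. Tnxb fell by 0.33 (adjusted p = 0.0265), a call kept in 8 of 17 alternatives. P4hb, protein disulfide isomerase, differed by 0.19 and 0.22 and was not called.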

How the data were processed

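RNA of 8 pools was labelled after amplification with NuGEN kits, per the labels' protocols, and read on Affymetrix mouse gene arrays. The authors deposited log2 values, made with RMA in Affymetrix Expression Console per the submitters' processing notes; the sources used here give neither versions nor the genome build. The platform table gave 1 symbol to 23525 of 41345 probe sets, several to 1810 and none to 16010. The probe set with the highest mean stood for a gene. Genes under the 25th percentile (4.11) were left out, which left 16638 of 22184. limma 3.58.1 (R 4.3.3) was fitted to all 8 arrays together, with a coefficient for each of the 4 groups and no other term (eBayes, residual df 4, prior df 4.51), with Benjamini-Hochberg adjustment over all genes tested. Intervals are 95% and cover the spread between pools only, and 2 arrays per group limit the precision. The fit was also run on data simulated from its own fitted spread, with independent noise. Such data hold no shared pool or tissue effect, so the run checks the code and not the precision with 2 arrays per group.

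The 9 genes and the 21 pathway and marker lists were chosen with earlier results of these data known. Named from each pathway list were the genes called within a segment or genotype (up to 5 by smallest p) and the uncalled gene with the highest mean; genes named from averaged comparisons were chosen after their values were seen. From the marker lists, counts and mean signals are given, with a few genes chosen after their values were seen. Array signal is relative, since RMA brings the arrays to a common scale (array medians of 5.11 to 5.19). Same-numbered pools did not deviate together (correlations of -0.10 to 0.13), so replicate numbers were not taken as pairs. Figures come from matplotlib 3.10.9 (python 3.11.15).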

Additional observations from a re-analysis of the deposited data

How the results depend on the processing

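Differences were recomputed with the dim filter dropped or set at the 50th percentile, with cyclic loess, array weights, a trended robust prior or arrays shifted to 1 median, and with the replicate block. Probe sets of a gene were averaged or all tested, the fit was limited to the arrays compared, and each of the 8 arrays was left out in turn, the lone pool left in a group being assumed to vary as the other groups do. Vcan averaged over segments and Acan averaged over genotypes kept direction and call throughout. Within a segment or genotype the calls were close to the threshold. In the KO against WT ascending comparison, 1 of the 9 genes was called, and 0 were called with no filter, with 1 median, with every probe set and with only the arrays compared, as without any 1 array (0 to 0). In the descending comparison 2 were called, against 0 with no filter, every probe set or only the arrays compared, 1 with 1 median, and 0 to 1 without 1 array. Between segments in WT 1 was called, against 0 with every probe set or only the arrays compared and 0 to 1 without 1 array. Between segments in KO 1 was called, against 0 with no filter, 1 median, array weights, every probe set or only the arrays compared, and 0 to 1 without 1 array. Averaged over segments 2 were called, against 1 with no filter or every probe set and 1 to 3 without 1 array. Averaged over genotypes 1 was called, and 2 with the trended robust prior. Fits with fewer arrays have less power by construction. What caused the changes in the counts was not tested.

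With the replicate block, 0 of the 9 genes were called in the ascending comparison of genotypes, 1 in the descending one and 0 between segments in KO. The number of all genes called between genotypes in the descending aorta fell from 380 to 200. The replicate numbers share only a number here, and Hapln1 (adjusted p = 0.0298) kept its descending call under the block.

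Signs turned only where an array was left out, and only in uncalled differences. Over the arrays left out, Hapln1 between genotypes in the ascending aorta ranged from -0.11 to 0.011 and Has2 from -0.0069 to 0.31. In the descending aorta Acan ranged from -0.11 to 0.17, Hapln4 from -0.084 to 0.13, Has1 from -0.30 to 0.18 and Cd44 from -0.091 to 0.34. Between segments in WT, Hapln3 ranged from -0.0018 to 0.060, Has1 from -0.090 to 0.39 and Has3 from -0.20 to 0.36. Between segments in KO, Has3 ranged from -0.067 to 0.35 and Cd44 from -0.17 to 0.26.

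Counts over all genes moved by more than 1.5 times under several settings: between 39 (every probe set) and 1014 (trended robust prior) around 455 in the ascending and between 20 (without the first WT descending array) and 919 around 380 in the descending comparison of genotypes. Between segments they ranged from 32 to 444 in WT and from 35 to 430 in KO, around 247 in each. Averaged over segments they ranged from 691 to 2604 around 1902, averaged over genotypes from 349 to 951 around 677, and in the interaction from 0 to 11 (without the first KO descending array).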
